A study of Mus musculus with 14 samples.

Results

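Long intergenic noncoding RNAs (lincRNAs) were followed in the liver of TALLYHO mice given indole or water. The lincRNAs described here were the 101 genes with the biotype lincRNA in the deposited count table that lay outside the X and Y chromosomes and had a mean raw count of at least 20 over 14 mice. They were selected on that mean, out of 4979 such lincRNA genes, 1083 of which had a read in any mouse, and out of 55487 genes in the table. The nearest genes inside the limit were *E430024I08Rik* (mean count 20.6) and *Gm44744* (20.4), and the nearest outside it were *Gm31812* (19.8) and *A330035P11Rik* (19.7). All 101 had reads in every mouse and passed the expression filter.

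The mice were young adult male TALLYHO/JnG animals, a polygenic model of type 2 diabetes in which fasting blood glucose differs widely between individuals. The water group (*n*=7) received vehicle by oral gavage, and the indole group (*n*=7) received 20 mg/kg indole, each at 2 doses per day for 7 days, followed by metabolic tests with further dosing between them. A frozen right lobe gave the RNA, and 1 strand-specific polyA library was sequenced for each mouse, named G1 to G14. The comparison addresses which liver transcripts differ after repeated indole.

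LincRNAs are transcribed by RNA polymerase II, and most are spliced and polyadenylated like mRNAs but carry no long open reading frame. Many stay in the nucleus, where some organise nuclear bodies or act on genes close to their own locus, and others bind proteins or microRNAs in the cytoplasm. Their levels are usually lower than those of mRNAs, and polyA libraries record only the forms that carry a polyA tail.

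Between 15390922 and 21060376 reads were counted on genes in a water-treated mouse and between 15197498 and 18464326 in an indole-treated mouse. The summed level of 6 hepatocyte markers was 75934 to 95574 CPM (counts scaled to a common library size) in the water group and 68055 to 102725 CPM in the indole group, and 2 of 5 pancreatic acinar markers (*Cela2a*, *Cpb1*) had no read. All 4 tested erythroid markers were higher in the indole group with an unadjusted *p* below 0.05 (list of 5, summed level 204 to 383 CPM against 262 to 1085 CPM). All 4 bile duct epithelium markers were lower and all 5 sinusoidal endothelium markers higher, with an unadjusted edgeR *p* below 0.05 for 1 of each list. The hepatocyte, stellate cell and macrophage lists held markers of both directions. An unadjusted edgeR *p* below 0.05 was reached by 1 hepatocyte marker, 1 stellate cell marker and no macrophage marker. The part of these markers in the values below was not tested. In bulk tissue, fewer cells of a type and less RNA per cell cannot be told apart. Levels below are CPM after TMM scaling, and levels of different genes are compared only as CPM per kilobase of the gene length in the table.

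Most of these genes were short of reads: 45 had a mean count of 20 to 50, 26 of 50 to 100, 23 of 100 to 500 and 7 of 500 or more. Their gene lengths ranged from 372 to 20771 bases (median 1811), 12 had transcripts of 1 exon only, and 69 had a transcript of 3 or more exons in GENCODE M21 (GRCm38). They lay on 19 chromosomes. By the coordinates of the table, 13 overlapped a protein-coding gene (11 on the opposite strand), 32 more lay within 5 kb of one, and 22 lay beyond 50 kb. Of the 32, 14 were divergent from the coding gene and 10 lay downstream of it on the same strand. RefSeq had an entry for 81 of the 101, of which 76 were lncRNAs, 4 were protein coding and 1 was a pseudogene.

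Several of the names therefore stand for something other than a free-standing noncoding gene. The reads on *9130016M20Rik* (chr19:31950084-31952361) fall 1089 bases downstream of *A1cf* on the same strand, and RefSeq lists that symbol under *A1cf*, which encodes a cofactor of apolipoprotein B mRNA editing. *Gm10076* (chr14:105681828-105682211) is a single-exon pseudogene in RefSeq. Its 383-base transcript matched a transcript of *Rpl41*, a ribosomal protein gene, at 381 of 383 bases, differing by T126C and A233G (*Gm10076* base, position from the first base of its transcript, *Rpl41* base). Within the matched bases of these reference transcripts, and apart from sequence beyond them, these differences are all that separates the gene pair. The stretches that hold them are therefore shown, with the differing base in capitals (GENCODE M21 transcripts, 5′ to 3′).
Gm10076 bases 113 to 139: aagtaagccagccTgtgcacctacgac
Rpl41, same stretch: aagtaagccagccCgtgcacctacgac
Gm10076 bases 220 to 246: gtagacctggaacAtcacctcgccgcg
Rpl41, same stretch: gtagacctggaacGtcacctcgccgcg

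In all, 22 of the 101 shared at least 100 bases at 95% identity or more with a coding transcript from elsewhere in the genome. Of these, 14 matched in the same orientation and 8 as the reverse complement. Most of the matches were short beside the gene length, such as 151 of 6983 bases for *Malat1* and 103 of 6996 for *Pvt1*, and do not make the gene a copy. A larger part was shared by *Gm47162* (chr9:123307084-123307983), which matched as the reverse complement. Bases 198 to 447 of its transcript were the reverse complement of a transcript of *Scp2*, a sterol carrier protein gene that was abundant in these livers (mean count 71103), at 249 of 250 bases. The difference, G212T (*Gm47162* base, position in its transcript, base of the reverse complement of *Scp2*), is in capitals in the stretch below, which is shown because it is the only one inside the match.
Gm47162 bases 199 to 225: tagcttctttgccGccagggccatctt
Scp2, reverse complement, same stretch: tagcttctttgccTccagggccatctt

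Per kilobase, *Gm10076* had the highest level of the 101 (118 CPM per kb), followed by *AW112010* (104), *Gm6135* (38.5), *9130016M20Rik* (31.4), *Gm48633* (28.9), *1810008I18Rik* (22.5) and *2900097C17Rik* (16.4). These levels describe the genes that the count limit chose and were not tested. Only 10 of the 101 exceeded 10 CPM per kb, and 28 were below 1 CPM per kb. At the low end stood long transcripts with few reads, such as *Pvt1* (0.227 CPM per kb), whose locus lies downstream of the oncogene *Myc*. Together the 101 genes took 0.0860±0.0123% (SD, *n*=7) of the counted reads in the water group and 0.0908±0.0160% (*n*=7) in the indole group, a difference smaller than either SD (two-sided exact permutation test over mice, *p*=0.541).

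*Malat1* and *Neat1*, neighbouring nuclear RNAs of chromosome 19, differed most between mice among the lincRNAs with a mean count above 100. *Malat1*, which resides in nuclear speckles, ranged in the water group from 9.18 to 57.2 CPM (median 18.5) and in the indole group from 13.4 to 75.0 CPM (median 41.7). *Neat1*, the scaffold of paraspeckles, ranged from 3.22 to 13.1 CPM (median 4.76) and from 2.16 to 17.4 CPM (median 4.78). As the libraries were made from polyA RNA, these levels need not stand for forms of either RNA without a polyA tail. The groups overlapped almost completely for both. The mice divided in much the same way for both RNAs: G3, G4, G2 and G12 had the 4 highest *Malat1* levels (50.5 to 75.0 CPM), G7 and G1 followed at 41.7 and 39.8 CPM, and the other 8 mice were at 21.5 CPM or below. For *Neat1* the 5 highest were G3, G4, G2, G1 and G12 (10.7 to 17.4 CPM), while G7 had 3.57 CPM. Water-treated and indole-treated mice stood among the highest for each.

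The highest mouse had 8.17 times the *Malat1* level of the lowest and 8.05 times its *Neat1* level. The fold change of indole over water was 0.57±0.50 (log2±SE) for *Malat1* and 0.24±0.51 for *Neat1*, with an unadjusted *p*=0.275 and an unadjusted *p*=0.640 in edgeR's quasi-likelihood test. When single mice were left out, the value for *Malat1* went from 0.31 without G3 to 0.90 without G4, and that for *Neat1* from -0.082 without G3 to 0.49 without G4. The cytoplasmic RNA *2900097C17Rik*, listed as *Norad* in RefSeq and known for binding Pumilio proteins, had a smaller SD of log2 CPM between mice of a group (0.20, against 0.95 for *Malat1* and 0.97 for *Neat1*). It had 69.2 to 94.3 CPM with water (median 79.2) and 61.9 to 95.4 CPM with indole (median 76.8). *Oip5os1*, a conserved RNA known as *Cyrano* that brings about the decay of the microRNA miR-7, had an SD of 0.26, at 29.7 to 48.2 CPM with water and 31.6 to 51.3 CPM with indole. For neither did the groups separate.

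**Figure D1:**
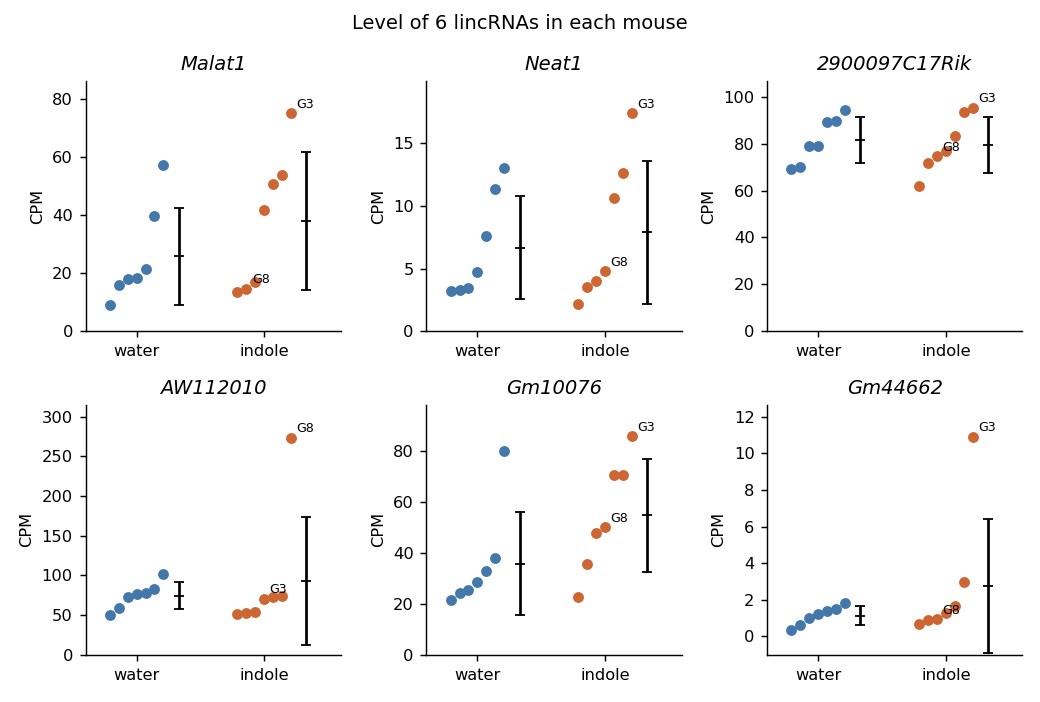
Level of 6 lincRNAs in CPM (linear vertical axes) in each mouse, water (blue, n=7) and indole (orange, n=7), with the mean and SD of each group as a black bar; mice G3 and G8 are named. *Malat1* and *Neat1* spread widely in both groups, *2900097C17Rik* varies less, G8 stands alone for *AW112010* at 273 CPM, and G3 stands alone for *Gm44662* at 10.9 CPM.

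Among the 101 were 3 hosts of small nucleolar RNAs, which are processed from introns. *Snhg6* had 2.91±0.60 CPM with water and 3.23±0.69 CPM with indole (SD, *n*=7 each), and *Snhg12* had 2.61±0.84 and 2.37±0.92 CPM. *Epb41l4aos*, with a mean of 23.2 reads per mouse, had 1.31±0.61 and 1.32±0.59 CPM. *Snhg8*, a host of another biotype, had 12.7±1.6 and 13.6±1.6 CPM. Of 18 such hosts listed, 10 could be tested whatever their biotype, 4 of them higher and 6 lower with indole, and none had an unadjusted *p* below 0.05. None did either among the 5 genes tested from 8 symbols listed for nuclear architecture, which include both names of *2900097C17Rik*, the 2 tested from 10 symbols of microRNA hosts, and the 3 tested from 16 symbols linked to p53, growth or liver metabolism. Of the imprinted RNAs, *H19* had a mean of 4.07 reads and *Meg3* had none. *Peg13*, of the sense intronic biotype, was the only imprinted RNA of that list with enough reads to be tested (2.67±0.60 and 2.46±0.61 CPM, log2 fold change -0.12±0.20, edgeR unadjusted *p*=0.551).

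*AW112010*, an RNA known from activated immune cells, had the second highest mean count of the 101 and stood out in a single mouse. Its level was 49.6 to 101 CPM in the water group (median 77.1). In the indole group 6 mice had 51.0 to 74.0 CPM, within the water range, and G8 had 273 CPM. The fold change was 0.31±0.38 on the log2 scale (edgeR, unadjusted *p*=0.428) and -0.25 without G8, so that its direction rested on that mouse. G8 also had the highest summed level of 10 interferon response genes (1388 CPM, none of the 10 at 0) and of 8 Kupffer cell and macrophage markers (413 CPM, none at 0). For the interferon response genes the water group had 240 to 422 CPM and the other 6 indole-treated mice 194 to 228 CPM, all below the water group. For the macrophage markers these ranges were 81.9 to 226 CPM and 101.9 to 170 CPM. The part of these in the *AW112010* level was not tested.

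The promoter window of *AW112010* is shown because this mouse had both a high level of it and high interferon response genes. It lies inside the counted gene model (chr19:11047612-11055808, minus strand), and the region upstream of that model's own start was not searched. The window runs from 250 bases before to 50 bases after the RefSeq start site (chr19:11050517-11050816, minus strand, GRCm38.p6), with the bases from the start site onwards in capitals.
AW112010: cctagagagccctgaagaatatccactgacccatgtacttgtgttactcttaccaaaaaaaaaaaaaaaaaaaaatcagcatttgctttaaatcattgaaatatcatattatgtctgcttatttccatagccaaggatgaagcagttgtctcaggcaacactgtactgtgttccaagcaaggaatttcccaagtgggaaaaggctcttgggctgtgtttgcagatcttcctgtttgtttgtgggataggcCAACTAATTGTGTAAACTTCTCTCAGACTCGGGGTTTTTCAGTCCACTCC
On either strand it held neither GAAANNGAA, a core of the interferon-stimulated response element, nor TTCNNNGAA, that of the interferon-gamma activated site. The GAA that ends the second pattern can also begin the first. The first was present in 8.56% and the second in 8.30% of 32851 promoter windows of that length. The 64 lincRNAs with a window had 111 windows between them, of which 9 (8.11%) held the first and 9 (8.11%) the second. No match says only that these letters are not in this window.

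As a set, the lincRNAs varied more between mice than the average gene. The SD of log2 CPM between mice of a group had a median of 0.369 over the 101, against 0.238 over all 12653 genes tested, and 87 of the 101 were above that median. The highest mouse had more than 2 times the level of the lowest for 77 of them and more than 4 times for 20. Spread falls with level in count data, so the values were also set beside genes in the same band of mean count. Among genes with a mean count of 20 to 50 the median SD was 0.469 for the 45 lincRNAs and 0.445 for all 1623 genes tested, and at 50 to 100 it was 0.335 for 26 and 0.327 for 1493. At 100 to 500 it was 0.276 for 23 lincRNAs and 0.210 for 4619 genes, and at 500 or more it was 0.572 for 7 and 0.158 for 3752. The last band has no upper limit, so abundance is not matched in it. The mean counts of its lincRNAs reached 1434 at most, while its other genes include *Scp2* at 71103. The lincRNAs with few reads thus varied about as much as other genes of that abundance, and all 7 of the most abundant were above the median of their band. These 7 were *Gm10076*, *AW112010*, *9130016M20Rik*, *1810008I18Rik*, *2900097C17Rik*, *Oip5os1* and *Malat1*, and these medians were not tested.

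**Figure D2:**
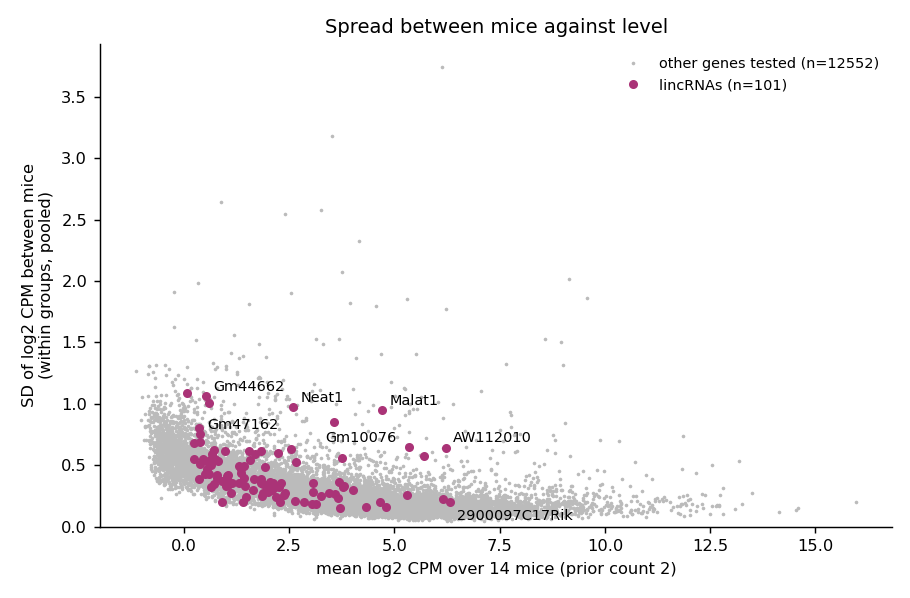
SD of log2 CPM between mice (within groups, pooled) against the mean log2 CPM over 14 mice, for 101 lincRNAs (purple) and the other genes tested (grey). The lincRNAs lie mostly at the low end of the level axis, inside the grey cloud, while *Malat1*, *Neat1*, *Gm10076* and *AW112010* lie above most genes of their level.

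The steadiest lincRNAs were *Gm17753* (SD 0.15), divergent from the histone gene *H1f0*, *Gm5524* (0.16), *Gm20300* (0.16) and *Gm30262* (0.18). *Gm17753* had 10.5 to 15.4 CPM with water and 11.4 to 14.2 CPM with indole. *Gm5524*, the most isolated of the 101 at 873721 bases from the nearest coding gene, had 25.6 to 31.3 CPM and 22.8 to 35.3 CPM. At the other end stood *AI480526* (SD 1.09), *Gm44662* (1.06), *Gm10804* (1.01) and *Neat1* (0.97). All of these but *Neat1* had mean counts of 23.4 to 34.6, at which counting error is larger than at higher counts. The reads on *AI480526* ranged from 5 in G9 to 89 in G3.

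Mouse G3, of the indole group, was the highest of the 14 mice for 23 of the 101 lincRNAs, or 22.8%, and the lowest for none. Over all genes tested it was the highest for 9.31% and the lowest for 6.88%, shares that are not matched for abundance. Reads on genes of the antisense biotype made up 0.166% of its counts, against 0.0914 to 0.128% in the other 13 mice. Next came G1 (0.128%) and G4 (0.119%) of the water group and G2 (0.116%) of the indole group. These mice and G3 also had the highest shares of reads on the 101 lincRNAs (G3 0.118%, G4 0.105%, G1 0.100%, G2 0.0976%). The part of the antisense reads in the lincRNA levels was not tested. G3 was the highest mouse for 5 of the 11 lincRNAs that overlap a coding gene on the opposite strand. It was also highest for 4 of the 8 with a stretch that matches the reverse complement of a coding transcript. *Rps18-ps4* is in both classes, so G3 was highest for 8 of these 18 and for 15 of the 83 with neither property. The matching stretch was short for some, such as *Neat1* (133 of 20771 bases) and *Gm46516* (172 of 3245 bases).

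*Gm44662* (chr7:30916983-30946824), 1 of those highest in G3, lies opposite *Hamp2*, a homologue of the hepcidin gene. Of the 3 protein-coding genes that it overlaps by coordinates, only *Hamp2*, the one overlapped most, is described here. *Gm44662* had 0.331 to 1.83 CPM in the water group, 0.677 to 2.94 CPM in 6 indole-treated mice and 10.9 CPM in G3. *Hamp2* itself was also highest in G3 (218 CPM, against 19.3 to 186 CPM in the other mice). The fold change of *Gm44662* was the largest of the 101, at 1.31±0.64 on the log2 scale (edgeR, unadjusted *p*=0.0593), and was 0.32 without G3. Others of the 11 lincRNAs opposite a coding gene were highest in another mouse, such as *Gm10804* (4.12 CPM in G1, 1.12 CPM in G3) and *Snhg6* (4.32 CPM in G5, 3.27 CPM in G3). The following 3 cases were chosen after their values were seen, because G3 was high in them. *Gm30097*, opposite the fibrinogen gene *Fgg*, had 13.5 CPM in G3 against 2.76 to 7.05 CPM elsewhere, while *Fgg* was lowest there (1944 CPM, against 1984 to 3499 CPM). *Gm47162*, the reverse complement of *Scp2* described above, had 4.23 CPM in G3 against 0.340 to 1.59 CPM elsewhere, while *Scp2* in G3 was 3192 CPM against 2892 to 5023 CPM. *Rps18-ps4*, opposite the *Rps18* copy *Rps18-ps6*, had 11.7 CPM against 1.98 to 4.74 CPM, while *Rps18-ps6* in G3 was 164 CPM against 137 to 213 CPM. *Rps18* itself, which *Rps18-ps4* matches as the reverse complement over 542 bases, was highest in G3 (7.60 CPM, against 3.40 to 6.85 CPM).

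G3 did not decide the spread of the set as a whole. Without it the median SD was 0.371 over the lincRNAs and 0.237 over all genes tested.

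**Figure D3:**
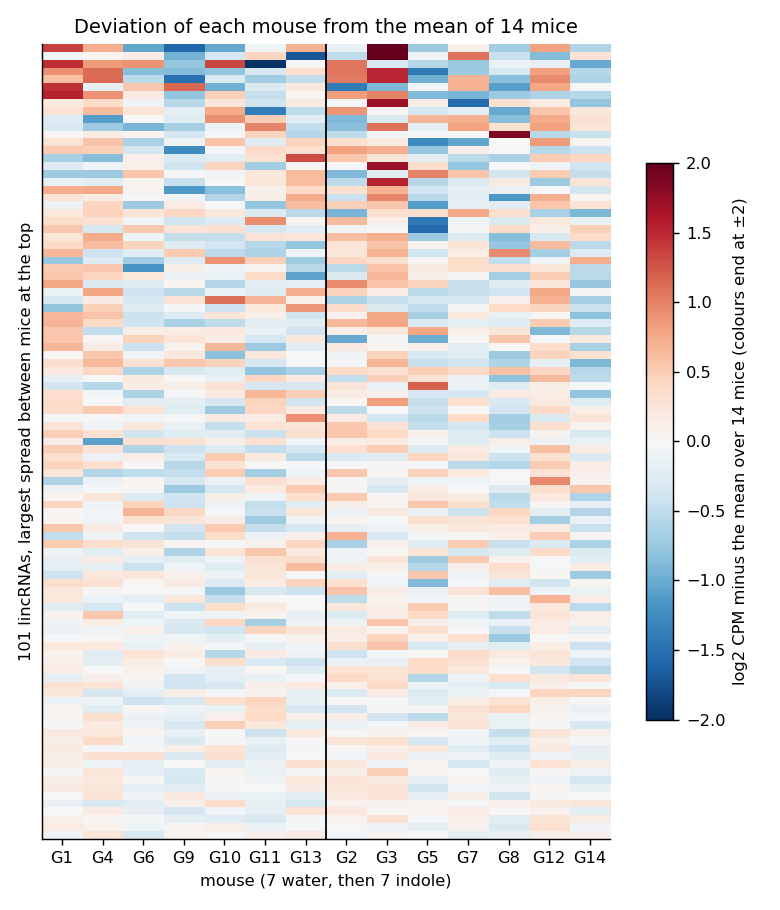
Log2 CPM of each of the 101 lincRNAs (rows, largest SD between mice at the top) in each of the 14 mice (columns, 7 water then 7 indole), as the difference from the mean over the mice; red is above and blue below, with colours ending at 2. The column of G3 is red for many of the most variable rows, and no block of rows changes colour at the line between the groups.

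*Gm10076*, the near copy of *Rpl41*, differed between mice in a way that *Rpl41* did not share. It had 21.3 to 79.9 CPM with water (median 28.6) and 22.6 to 85.5 CPM with indole (median 49.99). The highest mice were G3 (85.5 CPM), G11 (79.9 CPM), G7 and G12 (both 70.4 CPM), which include both groups. *Rpl41* was lowest in G3 and G11, at 228 CPM in each, and ranged up to 484 CPM in G5. Of the reads counted on the pair, *Gm10076* took 27.2% in G3 and 25.9% in G11 but 4.55% in G6 and 6.09% in G2. The fold change with indole was 0.61±0.35 on the log2 scale for *Gm10076* (edgeR, unadjusted *p*=0.105) and -0.03±0.16 for *Rpl41* (unadjusted *p*=0.858 in the same edgeR fit). Reads were kept only where they mapped uniquely, and the part of this in the division between the pair was not tested. The differing bases above are those of reference transcripts, and the bases of these mice at the same positions were not read.

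**Figure D4:**
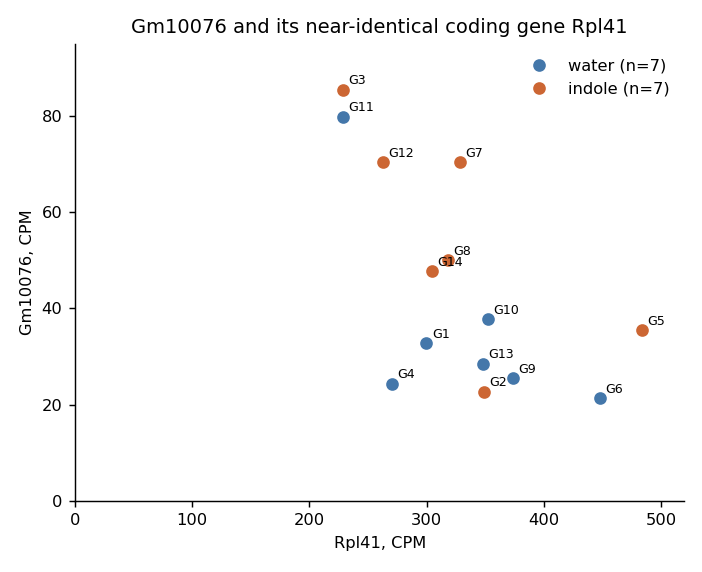
*Gm10076* level against *Rpl41* level in CPM (linear axes) in each mouse, water (blue, n=7) and indole (orange, n=7). G3 and G11 combine the highest *Gm10076* levels, 85.5 and 79.9 CPM, with the lowest *Rpl41* levels, 228 CPM.

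No lincRNA passed an adjusted *p* of 0.05 between indole and water. Over all 12653 genes tested, edgeR's quasi-likelihood test with Benjamini–Hochberg adjustment also called 0 genes (0%), and the smallest adjusted *p* among the lincRNAs was 0.998. At an unadjusted *p* below 0.05, 6 of the 101 were called (5.94%), beside 482 genes or 3.81% of all, and the 6 fell to 2 without G9 or G13. Of these 6, 5 were higher with indole (4.95%, against 1.53% of all genes) and 1 was lower (0.990%, against 2.28%). DESeq2 on the same genes gave 7 of the 101 (6.93%) at an unadjusted *p* below 0.05, beside 4.20% of all, and 0 of the 101 after adjustment. For none of the 101 did the groups fail to overlap, beside 6 of all genes (0.0474%). The fold changes of the lincRNAs had a median of 0.03 on the log2 scale (-0.03 without G3), with 54 higher and 47 lower, against a median of 0.00 over all genes. They ranged from -0.76 for *Gm10804* to 1.31 for *Gm44662*.

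The 5 that were higher at an unadjusted *p* below 0.05 have no function known for them here and are described by position. *Gm49602*, 369 bases downstream of the transcription factor gene *Sp4* on the same strand, had 0.886 to 2.20 CPM with water (median 1.27) and 1.05 to 2.49 CPM with indole (median 2.15). Its fold change was 0.59±0.24 (log2±SE, edgeR unadjusted *p*=0.0246, adjusted *p*=0.998), with 6 of 7 indole-treated mice above the median of the water group and G14 below it. *Gm36264*, 5349 bases upstream of *Gtpbp4*, had 2.60 to 6.10 CPM (median 2.98) and 4.24 to 6.20 CPM (median 4.87). All 7 indole-treated mice were above the median of the water group, but only 1 was above its highest mouse. Its fold change was 0.42±0.19 (edgeR unadjusted *p*=0.0373).

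*Gm37494*, a long gene model that RefSeq lists as protein coding, lies 3982 bases downstream of *Zfp619*. It had 8.34 to 18.0 CPM with water (median 9.99) and 10.6 to 19.4 CPM with indole (median 14.4), a fold change of 0.38±0.18 (edgeR unadjusted *p*=0.0451). *Gm36041*, upstream of the vasopressin receptor gene *Avpr1a*, had 2.37 to 4.64 CPM and 3.63 to 6.12 CPM, a fold change of 0.37±0.18 (unadjusted *p*=0.0491 in edgeR). *Gm20300*, 1507 bases downstream of *Hint3* on the same strand, was the most abundant of the 5 and among the steadiest of the 101. It had 16.0 to 21.3 CPM with water (median 19.3) and 16.96 to 24.1 CPM with indole (median 21.3), and the fold change was 0.19±0.09 (edgeR unadjusted *p*=0.0488). The ranges of the groups overlapped for all 5.

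The lincRNA that was lower at an unadjusted *p* below 0.05 was *Gm12354*, 7739 bases upstream of the ubiquitin ligase gene *Wwp1*. It had 1.83 to 2.73 CPM with water (median 2.27) and 1.16 to 2.72 CPM with indole (median 1.52), with 6 of 7 indole-treated mice below the median of the water group. Its fold change was -0.45±0.21 (edgeR unadjusted *p*=0.0463). The next smallest values in that direction belonged to *Mkln1os*, opposite *Mkln1* (-0.52±0.26), and to *Gm7292* (-0.32±0.17), which did not pass (edgeR unadjusted *p*=0.0622 and 0.0688).

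In an exact two-sided permutation test over every division of the mice into 7 and 7 (smallest possible *p*=0.000583), 4 of the 101 (3.96%) had an unadjusted *p* below 0.05, a share no higher than the 4.20% of all genes tested. These were *Gm12354* (permutation *p*=0.0256), *Gm49602* (0.0321), *Gm36264* (0.0367) and *Mkln1os* (0.0402). When single mice were left out in turn, *Gm49602* kept an unadjusted edgeR *p* below 0.05 in 12 of 14 fits, losing it at most to 0.0539 without G11. *Gm36264* kept it in 7 of 14, *Gm36041* in 6, *Gm12354* in 5, and *Gm20300* and *Gm37494* in 4 each. Their fold changes kept their sign in all of these fits, and the largest *p* came without G11 for *Gm36264* (0.0813), without G2 for *Gm36041* (0.118) and *Gm12354* (0.0998), without G3 for *Gm20300* (0.107) and without G12 for *Gm37494* (0.0970).

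**Figure D5:**
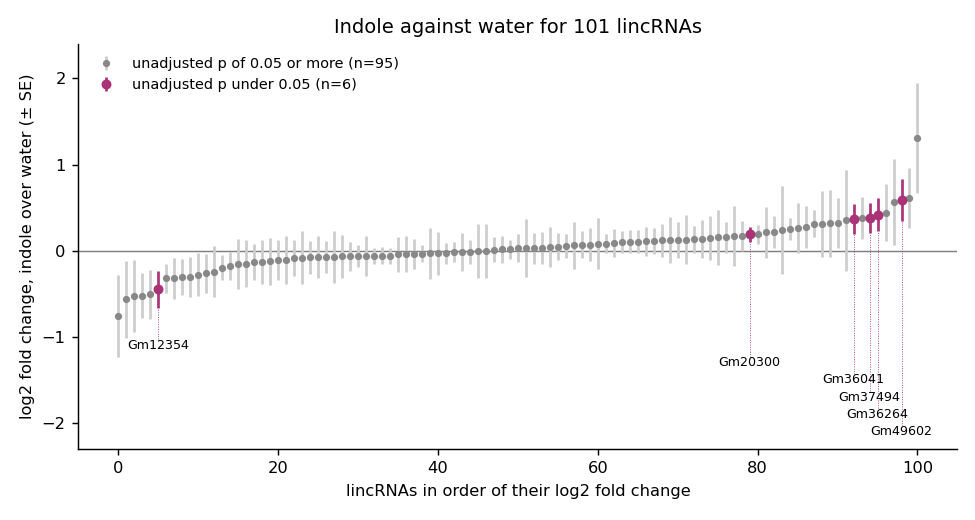
Log2 fold change of indole over water with its SE (vertical bars) for the 101 lincRNAs in order of size. The 6 with an unadjusted edgeR p below 0.05 are purple and named; most of the others have bars that reach 0, and the gene at the far right, *Gm44662*, has the largest fold change and a wide bar.

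The protein-coding genes nearest to the lincRNAs showed no common direction with them. Of the 83 lincRNAs whose nearest coding gene was tested, 38 had the same sign as that gene and 45 the opposite sign. These pairs involved 80 coding genes, of which 5 (6.25%) had an unadjusted *p* below 0.05 in edgeR, beside 3.81% of all genes, and at no pair did both reach it. The 5, named after their values were seen, were all lower with indole on the log2 scale: *Gm33543* (-0.44±0.12), *Zfp960* (-0.40±0.19), *Scaf8* (-0.21±0.09), the aromatic amino acid transporter gene *Slc16a10* (-0.21±0.10) and *Tbl1xr1* (-0.19±0.08). Their adjusted *p* was 0.998 in edgeR. For the 6 lincRNAs above, *Sp4* (-0.20±0.15), *Gtpbp4* (-0.09±0.08), *Hint3* (0.04±0.10), *Avpr1a* (0.12±0.20) and *Wwp1* (-0.04±0.09) had log2 fold changes with an unadjusted *p* of 0.215 or more in edgeR, and *Zfp619* had too few reads to be tested. Among the lincRNAs of highest level per kilobase, *Gm48633*, next to the apolipoprotein gene *Apob*, had 25.8±3.2 CPM with water and 24.8±3.7 CPM with indole, and *Apob* had a log2 fold change of -0.03±0.08. *9030622O22Rik*, next to the liver transcription factor gene *Foxa2* and named here after its values were seen, had 5.24±0.57 and 5.28±1.43 CPM. The abundant *9130016M20Rik* had 71.1±11.1 and 71.8±11.9 CPM (SD, *n*=7 each), and *1810008I18Rik* had 53.1±18.6 and 57.9±20.0 CPM.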

How the data were processed

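Groups were taken from the sample labels. According to the methods, the authors trimmed adapters, aligned strand-specific polyA reads with HISAT2 to GRCm38 with Ensembl genes, retained reads that mapped uniquely and deposited raw counts per gene, not normalised; the counting tool is not given in the sources used here. All 101 coordinates matched GENCODE M21, whereas the methods name a later Ensembl release, so which annotation gave the biotypes that define the set is not settled. Unique mapping lowers or divides counts of genes with near copies.

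Counts were tested with edgeR 4.0.16 in R 4.3.3 (TMM, filterByExpr, robust quasi-likelihood fit, no covariate) on 12653 genes, adjusted by Benjamini–Hochberg over all of them. The SE is the fold change divided by the square root of *F*. CPM were computed from the counts, and SDs on log2 CPM with a prior count of 2. The script was tested on simulated data. Alternatives used DESeq2 1.42.0, limma 3.58.1 and sva 3.50.0. Leaving out G3 for the spread was added after seeing the data. Labels give no batch or pairing. No libraries agreed within sampling noise (lowest chi-square per degree of freedom 16.8). *p* values set the difference between the groups against the spread between these mice.

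Named lincRNAs were the 12 of highest CPM per kb, those with unadjusted *p* below 0.05 or the 3 smallest *p* in each direction, role group members, the 4 of largest and 4 of smallest SD, those at the limit of 20, and nearest coding genes. Lists and members were chosen with earlier results of these data known.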

Additional observations from a re-analysis of the deposited data

Results flagged for a closer look

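Of 66 comparisons of the highest or lowest mouse with the rest of its group, 8 had a gap, as a share of the range of the group, beyond Dixon's 95% limit for 7 values. Chance flags about 1 in 20 groups, but 3 of the 8 were for lincRNAs named because their SD was among the largest, so the number cannot be read against chance. Mouse G3 was the mouse in 4 of the 8. In the indole group G3 was far above the next mouse for *Gm44662* (gap 0.779 of the range), *AI480526* (0.711), *Mkln1os* (0.588) and the share of reads on genes of the antisense biotype (0.675). G8 was far above for *AW112010* (0.896), as its level of 273 CPM shows. G2 was far above for *Gm10804* (0.742), with 3.10 CPM against 0.644 to 1.28 CPM for the rest of that group. G14 was far below for *Gm49602* (0.683), with 1.05 CPM. In the water group G11 was far above for *Gm10076* (0.720), with 79.9 CPM against 21.3 to 37.8 CPM.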

How the results depend on the processing

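The fold changes of 31 named lincRNAs were recomputed under 23 alternatives, giving 713 values, of which 686 kept their sign and 27 reversed, for 9 genes. None passed the adjusted threshold, but 75 values, of 14 genes, changed their side of an unadjusted *p* of 0.05: 53 lost it and 22 gained it. *AW112010* reversed in DESeq2 on the same genes (-0.22) and on every gene with a read (-0.23). With 1 surrogate variable *2900097C17Rik* (0.0055) and *Oip5os1* (0.023) reversed. The other reversals came from leaving out single mice, over which the log2 fold change ranged from -0.25 to 0.42 for *AW112010*, -0.28 to 0.015 for *Gm6135*, -0.040 to 0.092 for *9130016M20Rik*, -0.083 to 0.018 for *2900097C17Rik*, -0.0097 to 0.19 for *Gm8883*, -0.082 to 0.49 for *Neat1*, -0.17 to 0.17 for *Epb41l4aos*, -0.10 to 0.022 for *Oip5os1* and -0.36 to 0.72 for *AI480526*. The number of lincRNAs with an unadjusted *p* below 0.05 was 6, between 2 (without G9 or G13) and 7 when single mice were left out, with 3 without G6 or G14, and 4 to 9 under the other settings. Over all genes that number was 482, and 386 to 627 without single mice, and it was 1336 without a filter on low counts. No lincRNA passed the adjusted threshold in any alternative, and DESeq2 on the same genes called 1 gene of all. A limit of 10 on the mean count gave 169 lincRNAs and a limit of 50 gave 56. The causes were not tested. Relative to the level, counting error is larger at a mean of 20 reads than at higher counts. No paired analysis was possible because the mice share no replicate numbers between the groups.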
